A study of Mus musculus with 2 samples.

Results

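The genes described are 7 that are associated with neurons and their cytoskeleton, of 11484 genes measured: Nefl, Stmn2, Uchl1, Map2, Dpysl3, Celf5 and Bex1. They were taken by gene symbol, and each was read by 1 probe of a mouse whole-genome oligonucleotide microarray with 1 colour (Phalanx OneArray). Their measured values chose them, so their differences are a description, and no test was made of them. Expression was compared between small-molecule-generated stem cells, at passage 5 in ES (embryonic stem cell) medium, and the parental cells, at passage 1 in medium with FBS (fetal bovine serum). Both samples were of embryonic origin and of the strain labelled C57/ICR. The labels name neither the small molecule nor a transgene, sort or clone. There was 1 sample of each kind, although 3 replicates per sample are named in the description of the design, so no value has a replicate error and no p-value was computed. Treatment, passage and medium differed together and cannot be told apart.

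The shape of a neuron rests on neurofilaments, which fill the axon, and on microtubules, whose growth and loss are set by proteins that stabilise them, such as MAP2 in dendrites, and by proteins that destabilise them, such as stathmins in growth cones. Collapsin response mediator proteins (CRMPs) link guidance signals to this cytoskeleton. Several genes known as neuronal markers are also expressed outside the nervous system: Uchl1, for example, is well known in germ cells.

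Each value is the normalised intensity of a probe, not a logarithm, and the columns had medians of 305 in the stem cells and 304 in the parental cells. The 25th percentile of each column, 93.4 in the stem cells and 93.8 in the parental cells, served as a floor. Genes that did not exceed the floor in either sample are called dim here and have no fold. Where 1 of both values did not exceed it, the fold was taken against the floor of that sample and is written as "at least". Among 612 genes with 2 probes above the floor, 1 probe scattered around its gene with an SD of 1.05 in log2 difference, or 2.07-fold. This probe error covers the 2 arrays only and not differences between cultures. The identity of the samples was read from marker genes. Of 7 defining pluripotency markers 6 were 2-fold or more higher in the stem cells, Nanog being the exception (94.7 in the stem cells and 77.7 in the parental cells), and all 5 measured fibroblast markers were lower. In the wider lists, 11 of 12 pluripotency genes were higher and the 7 measured genes of the mesenchymal list were all lower.

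Of the 7 genes, 5 were brighter in the stem cells, Bex1, Nefl, Stmn2, Celf5 and Uchl1, and 2 were dimmer, Dpysl3 and Map2. All 7 differed by more than 4-fold. Over all 9766 genes that exceeded the floor in 1 or both samples, 22.1% were 2-fold or more higher and 22.6% were 2-fold or more lower. With dim values raised to the floor (at the bound) these shares were 20.5% higher and 20.8% lower, and at 4-fold they were 7.52% higher and 10.3% lower. The values chose the genes, so nothing is read from their count against these shares.

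**Figure D1:**
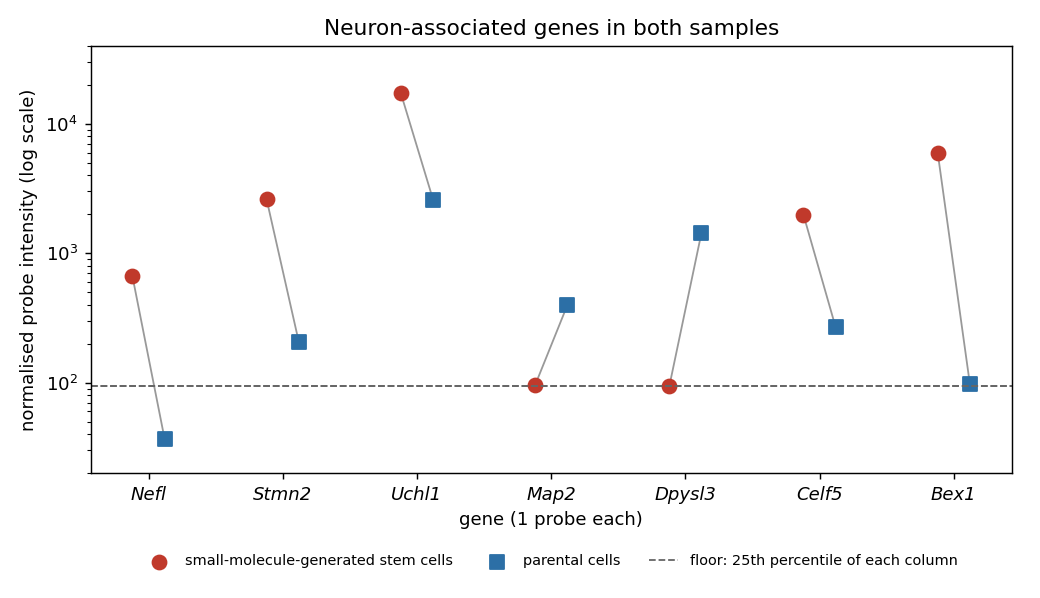
Normalised probe intensity (log scale) of the 7 genes, with stem cells as circles left of parental cells as squares and the floor of each column dashed. Bex1, Nefl, Stmn2, Celf5 and Uchl1 are brighter in the stem cells. In the stem cells Map2 (95.3) lies just above the floor and Dpysl3 (93.4) at it.

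Nefl encodes the light subunit of neurofilaments, on which the heavier subunits assemble. It measured 664 in the stem cells and 36.7 in the parental cells. The parental value lay under the floor, so Nefl was at least 7.08-fold higher in the stem cells. In rank within its own sample it stood at percentile 61.0 of all genes in the stem cells and at percentile 3.37 in the parental cells.

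Stmn2 encodes a stathmin of growth cones, also called SCG10, that binds tubulin and favours the disassembly of microtubules. Its intensity was 2602 in the stem cells and 206 in the parental cells. Both values were above the floor, and the fold was 12.6 (log2 difference 3.66). The gene stood at percentile 83.4 in the stem cells and 38.1 in the parental cells.

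Map2, whose product stabilises microtubules in dendrites, went the other way. It measured 95.3 in the stem cells and 395 in the parental cells, 4.15-fold lower in the stem cells (log2 difference -2.05). The stem cell value was just above the floor. Its parental value was at percentile 50.8, in the middle of the range.

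Dpysl3, which encodes the collapsin response mediator protein CRMP4, had an intensity of 93.4 in the stem cells and 1438 in the parental cells. The stem cell value was equal to the floor, and the gene was at least 15.4-fold lower. It stood at percentile 21.7 in the stem cells and 74.2 in the parental cells.

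Uchl1 encodes a deubiquitinating enzyme abundant in neurons, known as PGP9.5 where it serves as a stain for nerve fibres. It was well above the floor in both samples, at 17243 in the stem cells and 2596 in the parental cells, 6.64-fold higher. It stood at percentile 98.4 in the stem cells and 83.2 in the parental cells.

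Celf5, an RNA-binding protein gene of the CELF family of splicing and translation regulators, measured 1979 in the stem cells and 267 in the parental cells. It was 7.41-fold higher (log2 difference 2.89). Its percentile was 79.3 in the stem cells and 43.4 in the parental cells.

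Bex1, which encodes a small brain-expressed adaptor protein of an X-linked family, had the largest measured difference of the 7. Its intensity was 5978 in the stem cells and 97.2 in the parental cells, just above the floor there, a fold of 61.5 (log2 difference 5.94). It stood at percentile 92.6 in the stem cells and 22.3 in the parental cells.

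**Figure D2:**
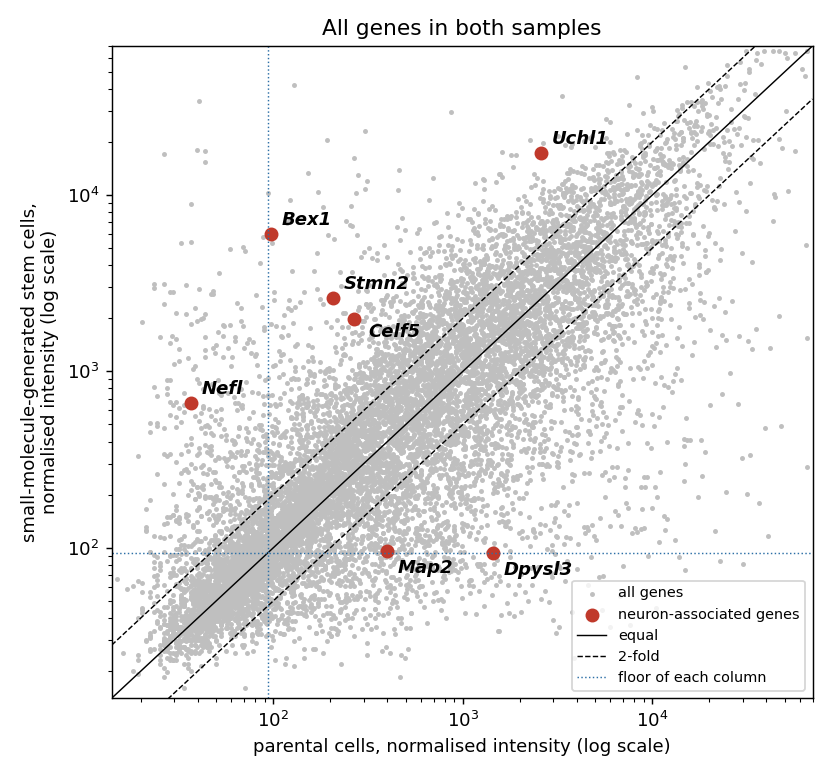
Normalised intensity of every gene in the stem cells (vertical, log scale) against the parental cells (horizontal, log scale), with the 7 genes in red, lines of equal and 2-fold different intensity, and the floors dotted. Nefl, Bex1, Stmn2, Celf5 and Uchl1 lie above the upper 2-fold line and Map2 and Dpysl3 below the lower one.

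Promoter sequences are shown for the genes with an entry in the RefSeq promoter table (GRCm38.p6), so that the base composition upstream of genes that differed in either direction can be seen. Of the 7 genes, 4 had one: Uchl1, Celf5 and Bex1, which were higher in the stem cells, and Map2, which was lower. Each sequence is the 250 bases before the annotated start, 5′ to 3′ on the strand of the gene, with every GC box (GGGCGG, or CCGCCC on the other strand) in capitals. Celf5 has 5 annotated starts, and the window of the one listed first is shown. The positions are chr5:66675871-66676120, plus strand, for Uchl1; chr10:81482700-81482949, minus strand, for Celf5; chrX:136215514-136215763, minus strand, for Bex1; and chr1:66175079-66175328, plus strand, for Map2.
Uchl1: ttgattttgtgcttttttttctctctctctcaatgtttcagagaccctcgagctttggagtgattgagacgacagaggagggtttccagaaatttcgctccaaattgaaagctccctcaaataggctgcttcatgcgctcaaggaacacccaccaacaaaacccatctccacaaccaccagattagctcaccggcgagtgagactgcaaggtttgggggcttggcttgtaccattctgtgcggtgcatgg
Celf5: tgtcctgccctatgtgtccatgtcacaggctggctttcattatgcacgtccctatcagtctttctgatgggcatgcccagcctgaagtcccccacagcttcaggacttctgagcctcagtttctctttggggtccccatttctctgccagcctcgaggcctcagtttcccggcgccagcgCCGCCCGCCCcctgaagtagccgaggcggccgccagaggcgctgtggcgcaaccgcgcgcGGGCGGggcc
Bex1: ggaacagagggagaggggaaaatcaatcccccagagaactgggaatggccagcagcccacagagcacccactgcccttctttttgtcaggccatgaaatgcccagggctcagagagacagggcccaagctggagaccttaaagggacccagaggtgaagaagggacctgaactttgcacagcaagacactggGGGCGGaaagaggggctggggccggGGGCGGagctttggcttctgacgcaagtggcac
Map2: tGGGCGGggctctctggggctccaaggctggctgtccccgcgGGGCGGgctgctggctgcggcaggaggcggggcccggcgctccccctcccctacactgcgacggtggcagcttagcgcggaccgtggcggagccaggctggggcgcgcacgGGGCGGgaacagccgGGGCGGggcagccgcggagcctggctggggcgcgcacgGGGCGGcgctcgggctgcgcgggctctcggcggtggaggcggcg

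The 4 windows differed widely in composition. Map2 had 34 CpG dinucleotides in 250 bases and a GC content of 81.2%, Celf5 had 17 (64.4%), Uchl1 had 7 (48.8%) and Bex1 had 4 (59.6%). The median over 32851 windows was 6 CpG dinucleotides, and 96.5% of windows had fewer than Map2. GC boxes numbered 5 in Map2, 3 in Celf5, of which 2 overlap, and 2 in Bex1, and Uchl1 had 0. The Celf5 windows not shown had 7 to 14 CpG dinucleotides and 0 to 2 GC boxes, fewer than the one shown. A GC box was present in 32.7% of all windows. None of the 4 windows shown held the E-box form CAGCTG, which is its own reverse complement and occurs in 13.0% of windows. A Celf5 window not shown held 1 copy of CAGCTG. Other forms of the E-box were not searched. On neither strand did any of the 4 hold a TATA box (TATAAA, in 12.4%) or CAGCACC (in 5.73%). CAGCACC is the core of the left side of the RE1 element bound by the repressor REST. The core of the right side (GGACAGC, in 5.28% of windows) occurred once, in Map2. These are matches of letters, not sites of binding.

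Each gene was next read beside the genes of its family. Because the 7 were chosen by their values, counts below are of the other family genes. For each such count, the shares over all 9766 genes were 22.1% higher and 22.6% lower. The list of intermediate filament genes held no keratins. Of its 5 other measured genes, 3 were 2-fold or more higher in the stem cells, with none lower. Ina, Sync, Vim and Gfap of the list were not measured. The keratin gene Krt8, outside the list, measured 2711 in the stem cells and 210 in the parental cells (log2 difference 3.69). Keratins were not read as a group. Nefm, the medium neurofilament subunit, measured 1650.2 in the stem cells and 260.2 in the parental cells, 6.34-fold higher. Nefh, the heavy subunit, measured 1917 in the stem cells and 67.1 in the parental cells, below the floor there, and was at least 20.4-fold higher. Prph, which encodes peripherin of peripheral and some central neurons, was at 2095 in the stem cells and 114 in the parental cells, 18.5-fold higher. Nefm, Nefh and Prph thus read higher in the stem cells, as did Nefl, which was chosen by its value. The filament genes of neural progenitors and of muscle differed by less than 2-fold, with Nes, encoding nestin, at 696 in the stem cells and 1082 in the parental cells and Des, encoding desmin, at 364 in the stem cells and 335 in the parental cells.

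In the stathmin family, Stmn3, a paralog expressed in neurons, was at 669 in the stem cells and 30.8 in the parental cells and at least 7.13-fold higher, beside Stmn2. Stmn4, also a neuronal paralog, was dim in both samples, at 76.7 in the stem cells and 74.7 in the parental cells.

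The collapsin response mediator family was split. Dpysl2, which encodes CRMP2, measured 248 in the stem cells and 7151 in the parental cells and was 28.8-fold lower. Dpysl4 was at least 2.06-fold lower, at 71 in the stem cells and 192 in the parental cells. Dpysl5 was at least 7.08-fold higher, at 664 in the stem cells and 64.9 in the parental cells.

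Among 13 other genes of microtubule-associated proteins 4 were higher and 6 lower, 2 differed by less than 2-fold and 1 was dim. Map1b, a stabiliser of axonal microtubules during outgrowth, measured 990.3 in the stem cells and 6009 in the parental cells, 6.07-fold lower. Map6, which protects microtubules from cold, was 5.24-fold lower (109 in the stem cells and 569 in the parental cells), and its 2 probes had log2 differences of -3.39 and -1.39. Dclk1, a doublecortin-like kinase, was at least 12.9-fold lower on the average of its probes (79.1 in the stem cells and 1207 in the parental cells), with probes at -5.96 and -1.90. The related kinase Dclk2 was 5.05-fold higher, at 1676 in the stem cells and 332 in the parental cells, and Dclk3 2.58-fold higher, at 251 in the stem cells and 97.2 in the parental cells. Dcx, the doublecortin gene of migrating neurons, was 2.44-fold higher, at 299 in the stem cells and 123 in the parental cells, and its 2 probes read 1.14 and 1.43 in log2 difference. Map1s, a broadly expressed relative of Map1b, measured 4452 in the stem cells and 2201 in the parental cells, 2.02-fold higher.

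Tubulins, the subunits of microtubules, mostly differed little: of 13 measured genes 8 lay within 2-fold, 2 were higher, 2 lower and 1 dim. Tubb3, the beta tubulin used as a marker of neurons, was at 745 in the stem cells and 663 in the parental cells, a fold of 1.12. Tuba4a was 14.1-fold higher, with a mean over 2 probes of 3658 in the stem cells and 260 in the parental cells, and both probes gave similar log2 differences, 3.61 and 4.02. Tubg1, the gamma tubulin of microtubule nucleation, was 2.06-fold higher, at 3446 in the stem cells and 1669.6 in the parental cells. Tubb2a was 3.43-fold lower (1799.7 in the stem cells and 6178 in the parental cells) and Tubb6 3.14-fold lower (9103 in the stem cells and 28611 in the parental cells).

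The 2 measured relatives of Uchl1 did not differ by 2-fold, and Uchl3 and Uchl5 were not measured. Uchl4 measured 133 in the stem cells and 73.7 in the parental cells, a bound of 1.42-fold, and Bap1, a nuclear deubiquitinase and tumour suppressor, 3917 in the stem cells and 3768 in the parental cells.

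Beside Celf5, 4 of the other 13 measured RNA-binding and splicing genes were higher, 0 were lower by the average of their probes, 5 lay within 2-fold and 4 were dim. Nova2, a splicing regulator of neurons, was 3.92-fold higher (422 in the stem cells and 108 in the parental cells). Elavl2, a HuB protein gene of neurons and germ cells, was 2.79-fold higher (904 in the stem cells and 325 in the parental cells), Celf1, a broadly expressed paralog of Celf5, 2.49-fold higher (1027.5 in the stem cells and 413 in the parental cells) and Ptbp2, the neuronal polypyrimidine tract binding protein, 2.35-fold higher (402 in the stem cells and 171 in the parental cells). Its paralog Ptbp1, a repressor of neuronal exons in other cells, was at 15860.2 in the stem cells and 10561 in the parental cells, and Elavl1 at 19302 in the stem cells and 14081 in the parental cells. Celf4 was within 2-fold on average (468 in the stem cells and 326 in the parental cells), but its 2 probes differed, with log2 differences of 1.80 and -0.75. Elavl3 was at 116 in the stem cells and 125 in the parental cells, and Rbfox2 averaged 309 in the stem cells and 450.4 in the parental cells. That average joins an Rbfox2 probe dim in both samples with one at 3498 in the stem cells and 7131 in the parental cells, which alone was more than 2-fold lower (log2 difference -1.03), so the count of 0 lower genes rests on averaging the probes. Celf3, Nova1, Rbfox1 and Rbfox3 were dim in both samples.

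The BEX and TCEAL family, of small proteins encoded close together on the X chromosome, showed no difference of 2-fold at the bound besides Bex1. Bex2 measured 167 in the stem cells and 40.6 in the parental cells, and since the parental value was under the floor its bound was 1.78-fold. Bex3, which encodes a partner of the neurotrophin receptor, was at 6232 in the stem cells and 7106 in the parental cells. Tceal5 was at 167 in the stem cells and 116 in the parental cells, Tceal7 at 239 in the stem cells and 175 in the parental cells and Tceal8 at 8247 in the stem cells and 13280.1 in the parental cells.

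**Figure D3:**
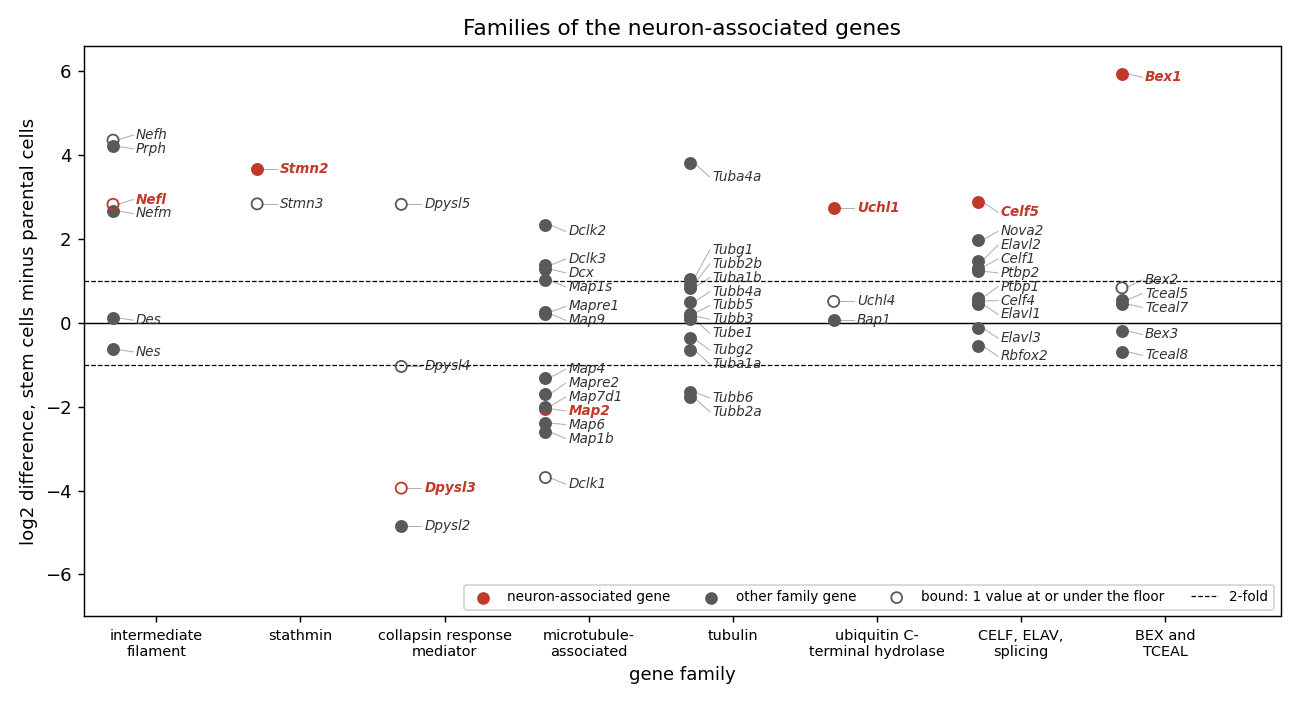
Log2 difference, stem cells minus parental cells, of each gene of the family lists that was not dim in both samples, with lower values raised to the floor. Red marks the 7 genes, open circles bounds and dashed lines 2-fold: Nefl stands with Nefm, Nefh and Prph, Dpysl3 beside Dpysl2, and Bex1 stands above the rest of its family.

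In the RefSeq gene table (GRCm38.p6, used for the order of genes only) each gene has a nearest measured neighbour on either side. Nefm is the next measured gene after Nefl and, as given above, was also higher, while Dock5 on the other side was 1.74-fold higher (453 in the stem cells and 261 in the parental cells). Bex1 lies between Tceal5 and Tceal7, both within 2-fold. Stmn2 lies between Il7 (83.3 in the stem cells and 134 in the parental cells) and Mrps28 (3234 in the stem cells and 3948 in the parental cells), also within 2-fold. Uchl1 lies between Apbb2, which was 4.50-fold lower (628 in the stem cells and 2825 in the parental cells), and Bend4, which was 46.0-fold higher (12900.4 in the stem cells and 281 in the parental cells). Of the neighbours of Celf5, Nfic was 3.17-fold lower (156 in the stem cells and 494 in the parental cells) and Ncln was at 9980.4 in the stem cells and 8177 in the parental cells. After Map2 lies Acadl, 4.39-fold lower (907 in the stem cells and 3976 in the parental cells), and before it D630023F18Rik, dim in both. Dpysl3 has Stk32a before it, dim in both, and Dcp2 after it, 2.28-fold higher (879 in the stem cells and 385 in the parental cells). Up to 21 genes without a measured value lie between a gene and such a neighbour.

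**Figure D4:**
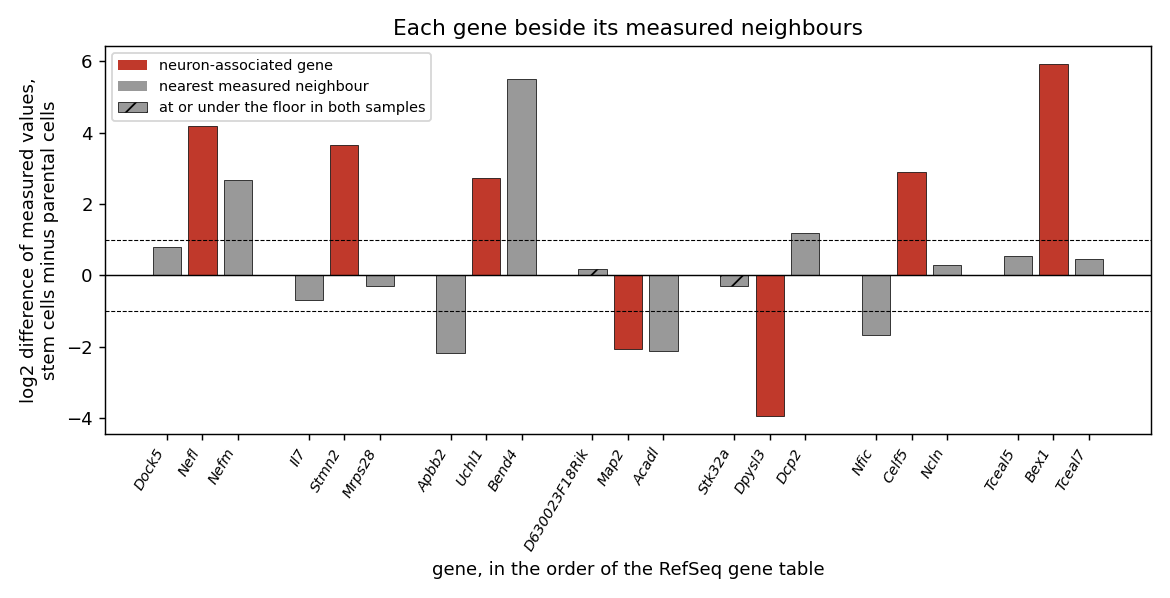
Log2 difference of measured values, stem cells minus parental cells, for each of the 7 genes (red) between its nearest measured neighbours (grey, hatched where dim in both samples), in the order of the gene table. Nefm is high beside Nefl, whereas Tceal5 and Tceal7 beside Bex1 and Il7 and Mrps28 beside Stmn2 lie within 2-fold.

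The genes with the most similar pair of values were found by the Euclidean distance between the log2 intensities of the 2 samples. For Nefl these were Vwf (distance 0.0059; 661 in the stem cells and 36.7 in the parental cells) and Pou5f1, which encodes OCT4 (distance 0.069; 639 in the stem cells and 37.8 in the parental cells). For Stmn2 they were Krt8 (0.065) and Tesc (0.20), for Uchl1 Cdca5 (0.20) and Baz2a (0.31), for Celf5 Inip (0.048) and Rhebl1 (0.085) and for Bex1 Nup210 (0.15) and Zfp296 (0.17). For Map2 they were St7l (0.065) and Meak7 (0.075), and for Dpysl3 Kazald1 (0.087) and Stk39 (0.091). With 2 samples such a likeness is a description of 2 numbers per gene.

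Whether the samples held the wider expression of neurons was read from further lists. All 10 neuron markers were measured, but Nefl, Stmn2 and Map2 are among them and were chosen for their values, so they are left out. Of the others, Nefm, Dcx, Snap25, Syp and Syn1 were 2-fold or more higher in the stem cells. The log2 difference of Nefm was 2.66. Those of Dcx, Snap25, Syp and Syn1 lay between 1.05 and 1.38, against a probe error of 1.05. Over all 9766 genes, 22.1% were 2-fold or more higher and 22.6% lower, and the counts of the lists below stand beside the same shares. Rbfox3, which encodes the nuclear antigen NeuN of mature neurons, was dim, at 84.4 in the stem cells and 54.9 in the parental cells, and Tubb3 differed by less than 2-fold. In bulk RNA, fewer cells of a type and less RNA per cell cannot be told apart.

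Of 15 measured genes of synaptic vesicles and secretory granules 5 were higher, or 4 at the bound, 3 were lower, 6 lay within 2-fold and 1 was dim. Their median log2 difference was 0.60 (0.44 at the bound), against 0.12 over all 9766 genes (0.10 at the bound). The higher ones were close to 2-fold. Syp, which encodes synaptophysin of synaptic vesicles, measured 996 in the stem cells and 482 in the parental cells, 2.07-fold higher. Snap25 and Vamp2, of the machinery that fuses vesicles with the membrane, were 2.10-fold (397 in the stem cells and 189 in the parental cells) and 2.11-fold higher (1173 in the stem cells and 556 in the parental cells). Syn1, encoding synapsin I, was 2.60-fold higher on average (295 in the stem cells and 114 in the parental cells), with probes at 0.65 and 2.10 in log2 difference. The Syn1 probe at 0.65 was dim in both samples (63.8 in the stem cells and 40.6 in the parental cells). Stx1a, encoding the partner of SNAP25 at the membrane, was at least 2.70-fold lower (72.8 in the stem cells and 252 in the parental cells), Syt11 2.16-fold lower (242 in the stem cells and 523 in the parental cells) and Cplx2, encoding a complexin, 2.14-fold lower (411 in the stem cells and 880.0 in the parental cells). The log2 differences of the 4 higher genes lay between 1.05 and 1.38, against a probe error of 1.05.

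Growth cone and axon genes went both ways, with 3 of 14 measured genes higher, 4 lower, 4 within 2-fold and 3 dim (median -0.40). The shares over all 9766 genes were 22.1% higher and 22.6% lower. Kif5a, a neuronal kinesin, was at least 4.21-fold higher on the average of its probes (394 in the stem cells and 62.9 in the parental cells), with probes at 0.83 and 4.47, and Cntn2, an axonal adhesion molecule, 2.09-fold higher (293 in the stem cells and 139.9 in the parental cells). Cdk5r2 encodes an activator of CDK5, the kinase of neurofilaments and microtubule-associated proteins. It averaged 192 in the stem cells and 83.5 in the parental cells and counts as higher by that average. Its probe above the floor in both samples measured 319 in the stem cells and 226 in the parental cells (log2 difference 0.49). The other Cdk5r2 probe was at 116 in the stem cells and 30.8 in the parental cells, under the floor there, a measured log2 difference of 1.91. The other activator gene, Cdk5r1, was 119-fold lower (206 in the stem cells and 24534 in the parental cells). Kif1a, a kinesin that carries synaptic vesicle precursors, was 15.0-fold lower (149 in the stem cells and 2229 in the parental cells), and Marcks, an actin-binding substrate of protein kinase C, 7.91-fold lower (1061 in the stem cells and 8389 in the parental cells), with probes at -3.87 and -2.09.

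Of 9 measured genes of transmitter synthesis, transport and reception 4 were dim, 5 lay within 2-fold and none was higher or lower. Grin2b, which encodes a subunit of the NMDA glutamate receptor, was well above the floor in both samples, at 6752 in the stem cells and 3404 in the parental cells, a fold of 1.98. Slc17a6, a vesicular glutamate transporter gene, was at 68.7 in the stem cells and 65.9 in the parental cells, and Th, encoding tyrosine hydroxylase, at 55.2 in the stem cells and 36.7 in the parental cells, all under the floor. Of 12 neuronal transcription factor genes 1 was higher, 3 were lower, 6 lay within 2-fold and 2 were dim. Pou4f1, a factor of sensory neurons, was at least 2.18-fold higher on the average of its probes (204 in the stem cells and 40.1 in the parental cells), with probes at 0.97 and 3.73. The Pou4f1 probe at 0.97 was dim in both samples (81.2 in the stem cells and 41.4 in the parental cells). Ebf3 was at least 6.05-fold lower (55.9 in the stem cells and 565 in the parental cells), Dlx2 at least 3.08-fold lower (53.1 in the stem cells and 287 in the parental cells) and Ebf1 at least 2.11-fold lower (32.8 in the stem cells and 198 in the parental cells).

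REST represses neuronal genes outside neurons together with corepressors. The probe for Rest was dim in both samples, at 51.8 in the stem cells and 52.9 in the parental cells, as was that for Rcor1 (20.1 in the stem cells and 36.7 in the parental cells), so neither gave a difference. Of the 9 measured genes of the complex 2 were higher, none was lower, 5 lay within 2-fold and 2 were dim. The share higher over all 9766 genes was 22.1%. Rcor2, a corepressor expressed in ES cells, was 5.42-fold higher (872 in the stem cells and 161 in the parental cells) and Sin3a 2.63-fold higher (3349.6 in the stem cells and 1273 in the parental cells).

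Markers of other cell types that carry neuronal or related genes were read in the same way, and their part in the values of the 7 genes was not tested. Beside the counts that follow, the shares over all 9766 genes were 22.1% higher and 22.6% lower. Of 12 measured neural progenitor markers 5 were higher, or 3 at the bound, and 2 lower, with Sox1 at least 2.79-fold higher (262 in the stem cells and 44.8 in the parental cells), Gbx2 17.8-fold higher (2457 in the stem cells and 138 in the parental cells) and Sox2 60.8-fold higher (16129 in the stem cells and 265 in the parental cells). Gbx2 and Sox2 are also genes of ES cells. Zic1 was at least 55.8-fold lower (68 in the stem cells and 5213 in the parental cells) and Hes1 7.12-fold lower (203 in the stem cells and 1446 in the parental cells). Of 7 measured oligodendrocyte markers 4 were higher and none lower. The lineage factor genes Olig1 and Olig2 were 9.04-fold (1967 in the stem cells and 218 in the parental cells) and 2.96-fold higher (800.3 in the stem cells and 270.2 in the parental cells). Mobp was 2.65-fold higher (443 in the stem cells and 167 in the parental cells) and Cnp 2.50-fold higher (1600 in the stem cells and 639 in the parental cells). The myelin genes Mag and Mog were within 2-fold, as was Sox10, dimmer in the stem cells (286 in the stem cells and 559 in the parental cells). Of 4 measured astrocyte markers Aldoc was 6.75-fold higher (2702 in the stem cells and 400.0 in the parental cells). Glul was 3.43-fold higher (3619 in the stem cells and 1056 in the parental cells). Gja1 was 2.37-fold lower (9289 in the stem cells and 22045 in the parental cells). Aqp4 lay within 2-fold (415 in the stem cells and 214 in the parental cells). The astrocyte markers Gfap, S100b, Slc1a3 and Aldh1l1 were not measured. Of 7 neural crest and Schwann cell markers none was higher and Ednrb was 4.85-fold lower (105 in the stem cells and 512 in the parental cells). Of 5 measured macrophage markers 3 were lower in the stem cells, with C1qa at 35.7 in the stem cells and 3198 in the parental cells. The other markers lay within 2-fold, Ptprc at 118 in the stem cells and 165 in the parental cells and Spi1 at 268 in the stem cells and 224 in the parental cells.

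**Figure D5:**
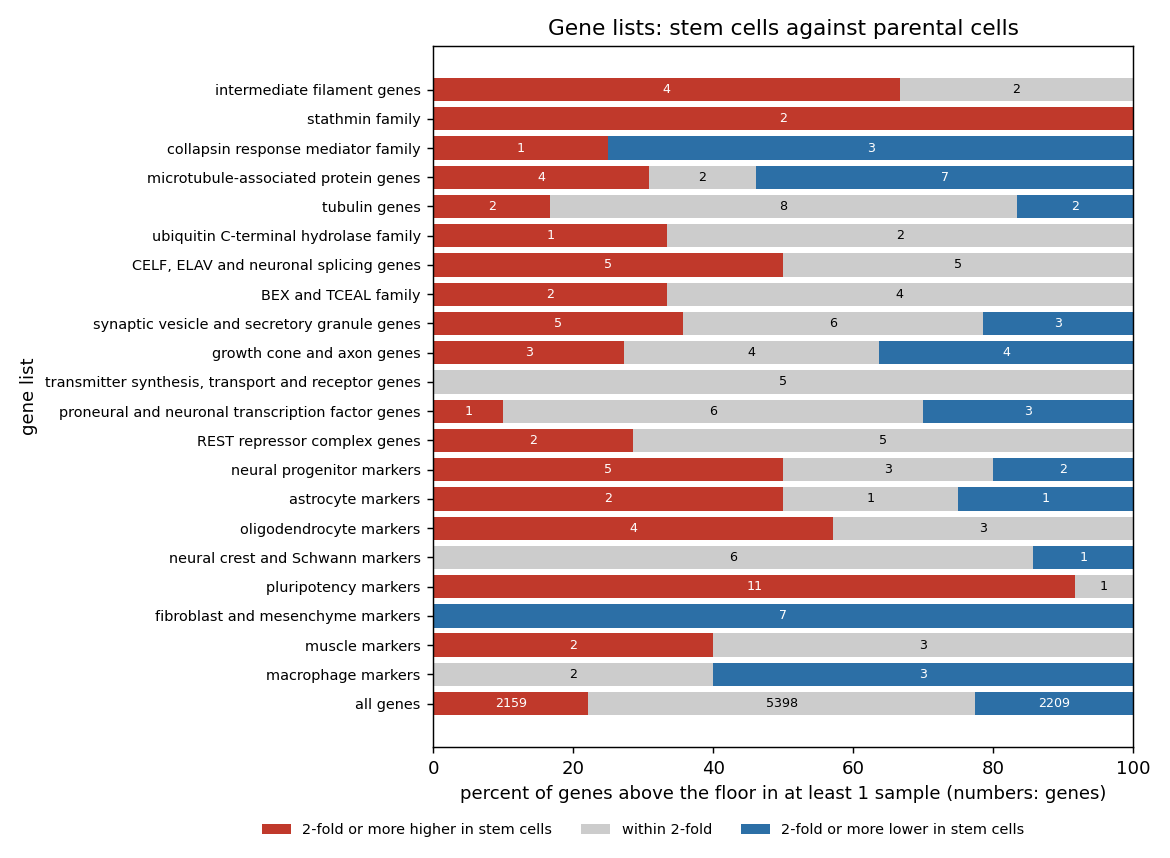
Percent of the genes of each list, without those dim in both samples, that were 2-fold or more higher in the stem cells (red), within 2-fold (grey) or 2-fold or more lower (blue), by measured values, with numbers of genes in the bars. Intermediate filament and stathmin lists, which include Nefl and Stmn2, are mostly red, and collapsin response mediator genes, which include Dpysl3, mostly blue. The microtubule-associated, ubiquitin C-terminal hydrolase, CELF and BEX bars include Map2, Uchl1, Celf5 and Bex1, in that order. The bottom bar gives all 9766 genes.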

How the data were processed

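RNA from 2 samples was amplified, labelled with Cy5 and hybridised, per the labels' protocols. The authors deposited 1 normalised intensity per probe and sample, not in logarithms; the sources used here do not give the background correction, the normalisation method or filters. Nearly equal quantiles of both columns would hide a difference in total signal. Of 13989 probes, 12380 had 1 symbol in the platform annotation, 0 had several and 1609 were not listed; 12364 were renamed through Entrez identifiers (RefSeq, GRCm38.p6) and 16 kept the platform's name.

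Log2 intensities of the probes of a gene were averaged, and genes were counted by size at 2-fold or more. The number of arrays limits the precision. The 7 genes and all 21 gene lists (181 of 284 memberships measured) were chosen with earlier results of these data known. Named beside the 7 were all measured genes of the family lists and up to 4 higher and 3 lower genes of other lists. Also named were the 2 nearest genes by pattern and the flanking genes. Grin2b, Slc17a6, Th, Mag, Sox10, Aqp4, Ptprc, Spi1, Rest and Rcor1 were named after their values were seen. The lists were compared with all genes by count and median, with no set test. The alternatives were other scalings, floors, offsets, probe choices and size rules; centring by probe class was added after seeing the data. Python 3.11.15, numpy 2.4.6 and pandas 2.3.3 were used, and the computation was tested on simulated data.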

Additional observations from a re-analysis of the deposited data

How the results depend on the processing

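The 7 differences were recomputed under 9 alternatives each, 63 values in all. Not every alternative could move a value. With 1 probe per gene, the brightest probe was the same probe. A floor at the 10th percentile or at the median leaves measured differences as they are. Raising dim values to the floor could change only genes with a value under it. None of the 63 values changed direction and all stayed past 2-fold. Of the 63, 61 moved by less than the probe error or not at all. The others were of Nefl, whose log2 difference of 4.18 became 3.04 with an offset of 50 and 2.82 with dim values raised to the floor, since its parental value lay under the floor. The ranges were 5.36 to 5.94 for Bex1, 3.37 to 3.68 for Stmn2, 2.68 to 2.89 for Celf5, 2.53 to 2.73 for Uchl1, -2.21 to -1.62 for Map2 and -4.10 to -3.37 for Dpysl3. In the BEX and TCEAL family the number higher was 1 in place of 2 with the floor at the median and with values set to the floor, and in the CELF, ELAV and splicing list 1 gene was lower with the brightest probe, in place of 0, and 1 was higher at 4-fold, in place of 5. Over all genes, 734 were higher and 1010 lower at 4-fold, against 2159 and 2209 at 2-fold. Centring by lowess shifted the median of all genes by -0.13. No paired analysis was possible because each group had 1 sample. Signal near the floor limits Map2, Dpysl3, Nefl and Bex1, whose dimmer value was under, at or just above it.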

Other observations

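Muscle markers were not at the floor throughout: of 5 measured, 2 were 2-fold or more higher in the stem cells by measured values, or 1 at the bound, Ttn, which encodes titin, by at least 5.14-fold (482 in the stem cells and 65.9 in the parental cells). Myog, a transcription factor of muscle differentiation, measured 89.1 in the stem cells and 101 in the parental cells. The share 2-fold or more higher over all 9766 genes was 22.1%.

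The deposited columns repeat values. The 13989 probes had 4402 distinct intensities in the stem cells and 4526 in the parental cells. The stem cell value of Dpysl3, 93.4, was shared by 31 probes and that of Map2, 95.3, by 25, and the parental value of Nefl, 36.7, by 65. The values of Uchl1 were each held by 1 probe.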
